A study of Mus musculus with 4 samples.

Results

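The genes described here are those of Wnt signalling in whole mouse embryos at embryonic day 9.5: the Wnt ligands, their Frizzled receptors and LRP co-receptors, the secreted inhibitors, β-catenin with its intracellular regulators, and the nuclear factors and feedback genes of the pathway. Members were chosen by gene symbol alone, as the Wnt, Fzd, Sfrp1 to Sfrp5 and Dkk1 to Dkk4 symbols and 16 single genes, and every Affymetrix probe set that the platform's annotation gives to 1 such gene was taken. This gave 105 of the 45037 tested probe sets and 52 of the 18193 named genes. Of the 16 single genes 15 had a probe set, and Tcf7 is not analysed here.

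Wnt proteins are lipid-modified secreted signals. At the cell surface they join a Frizzled receptor to LRP5 or LRP6, which stops the AXIN and APC complex from marking β-catenin for degradation, and β-catenin then enters the nucleus and switches on genes together with TCF and LEF factors. Several of the genes switched on, among them Axin2, Nkd1, Notum, Znrf3 and Rnf43, dampen the pathway in turn. Other Wnt proteins, WNT5A in particular, act through planar polarity and cell movement. In the embryo of this stage Wnt signals pattern the midbrain and the dorsal neural tube, feed the growth of the tail and drive outgrowth of the limb buds.

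Control embryos (+/+ or +/-) were compared with embryos null for Cop1, the gene of an E3 ubiquitin ligase. How the null allele was made is not given in the sources used here. RNA of 6 embryos of each genotype was combined into 1 pool, which was divided into 2 portions, and each portion was hybridised to its own array. Both arrays of a genotype thus carry the same RNA, so each SD and p-value below measures the spread between portions and not between embryos, and the genotype itself has no replicate check. Values are on the log2 scale, differences are given as null pool minus control pool, and a probe set was called higher or lower when its adjusted p was under 0.05 (limma, adjusted over all tested probe sets) and its fold was at least 1.5.

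Across probe sets, whose values are not independent, Pearson's r was 0.998 between the portions of either pool and 0.980 to 0.982 between the genotypes. The β-actin control probe sets read 0.14 to 0.19 log2 units higher at the 3′ end than at the 5′ end on the 4 arrays, with no split by genotype, and those of Gapdh -0.06 to 0.00. The probe set of Cop1 fell by 1.58 on the log2 scale. Its place relative to the deletion is unknown here, so this value need not measure the loss itself. Markers of neural tube, somites, heart, endothelium and primitive blood were present, and 0 of those measured lay below the median of every array. The somite markers held 4 lower calls among 7, with mean log2 levels of 8.07 in both control portions and 7.38 and 7.42 in the null portions. Those of visceral yolk sac and early liver held 3 lower calls among 7, with mean levels of 8.01 and 8.05 against 7.24 and 7.33. Of 4 measured trophoblast and decidua markers 1 was called higher (Ascl2, 0.64) and 2 lay below the median of every array. The part of these tissues in the results below was not tested.

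Of the 105 member probe sets, 6 were called higher and 9 lower in the null pool. These are 5.71% and 8.57% of the members, beside 6.76% called higher and 6.96% called lower over all tested probe sets, so that neither share stood far from the background. An adjusted p under 0.05 with any fold was reached by 42 members (40%), against 32.7% of all tested probe sets. Over the 52 genes, each represented by its probe set of highest mean, 1 was called higher (1.92%, against 3.58% of all named genes) and 5 lower (9.62%, against 8.06%). The median difference was -0.07 over the member probe sets and 0.01 over all tested probe sets. With the arrays centred on the poly-A spikes, a scaling that moves the median of all probe sets to -0.25, the 105 members held 2 higher and 21 lower calls, where 4.11% of all tested probe sets were called higher and 15.9% lower. That scaling lowers every difference by the same amount, so no lower call could miss the fold limit under it. All 9 lower calls of the members also kept their adjusted p there, and 4 of the 6 higher calls were lost. The members were brighter than most probe sets, as 24 of them (22.9%) lay below the median of every array, against 46.4% of all.

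**Figure D1:**
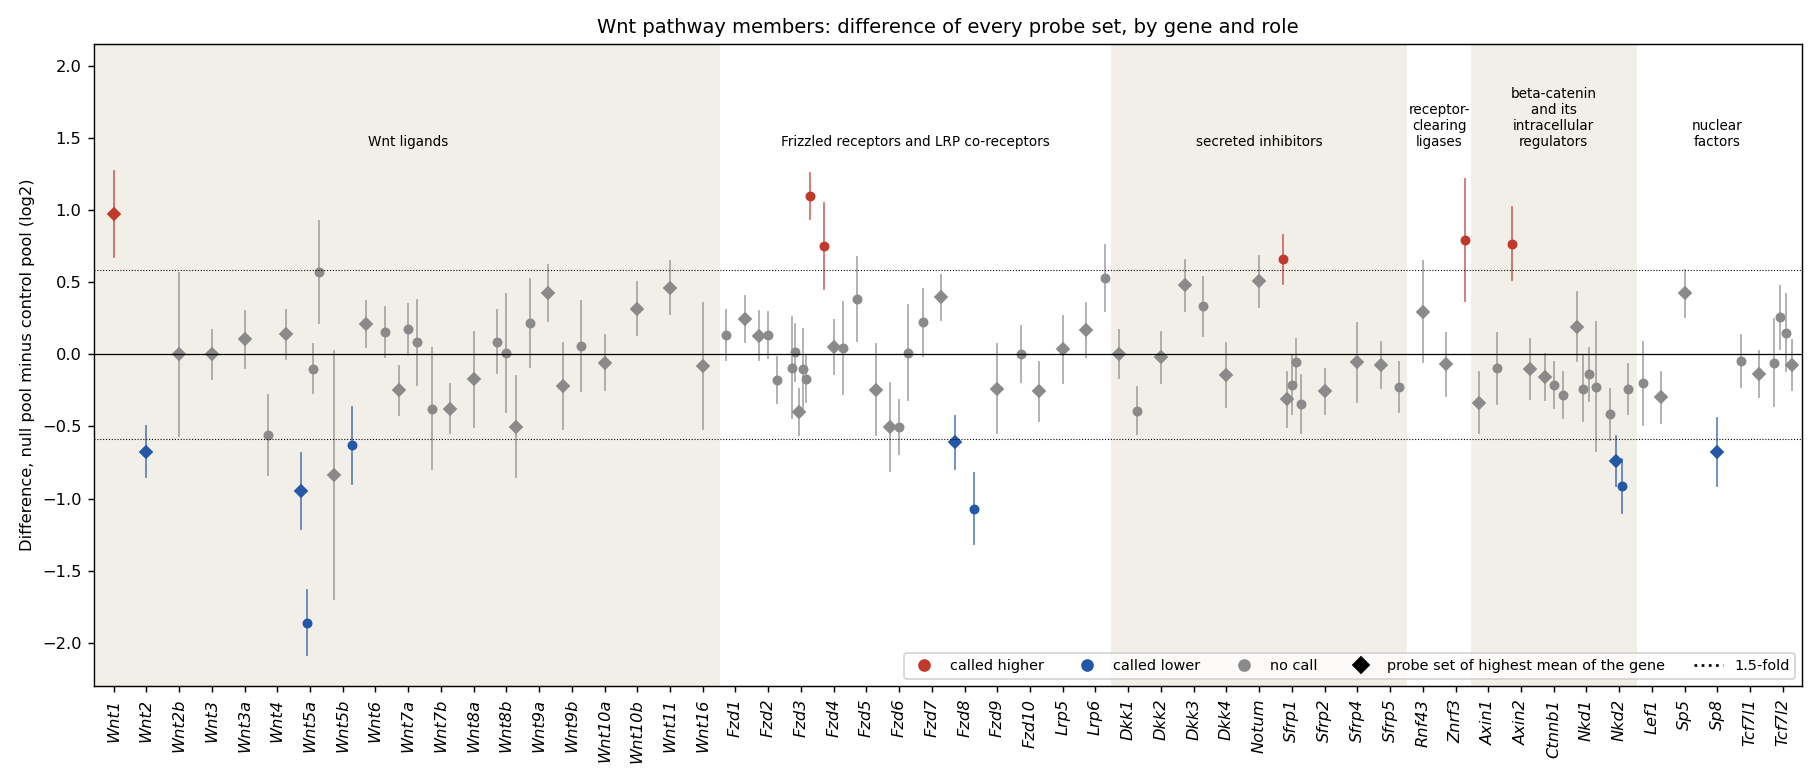
Difference between the null and the control pool (log2, vertical axis) for all 105 member probe sets, grouped by gene and role, with 95% confidence intervals from limma that rest on portions of 1 pool per genotype. Red points are the 6 probe sets called higher, blue points the 9 called lower, diamonds the probe set of highest mean of each gene, and the largest fall is that of a Wnt5a probe set at -1.86.

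Among the 19 Wnt ligand genes, Wnt1 was called higher in the null pool and Wnt2 lower. Wnt5a was called lower on 2 of its 4 probe sets and Wnt5b on 1 of its 2. Wnt1, the signal of the midbrain-hindbrain boundary and the roof plate, had values of 5.90 and 6.19 in the control portions and 7.06 and 6.97 in the null portions. The mean went from 6.04 ± 0.21 to 7.02 ± 0.06 (log2, SD, n = 2 portions), which is 1.96-fold (limma, adjusted p = 0.00443). In bulk tissue a change in the number of cells that use a gene and a change of RNA per cell cannot be told apart. Of 4 measured markers of the roof plate and dorsal midline, 0 were called in either direction, their mean log2 level was 8.39 and 8.42 on the control arrays and 8.64 on both null arrays, and 0 lay below the median of every array. Their part in the difference of Wnt1 was not tested.

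Wnt5a, the ligand of tail, limb bud and facial outgrowth, had the largest difference of any member. Probe set 1437673_at read 7.10 and 7.28 in the control pool and 5.37 and 5.30 in the null pool, a 3.63-fold fall (difference -1.86, SE 0.09, limma, adjusted p = 0.000705). The probe set of highest mean, 1436791_at, read 8.79 and 9.01 against 8.01 and 7.89, a 1.93-fold fall (adjusted p = 0.00336). The other 2 probe sets of the gene did not follow. Probe set 1448818_at read 8.27 and 8.20 in the control pool and 8.13 and 8.14 in the null pool, a difference of -0.10 with a 95% interval from -0.27 to 0.07. The dim 1456976_at read 4.40 and 4.26 against 5.08 and 4.72, a positive difference (0.57) just under the fold limit. The fall of Wnt5a thus holds for 2 of 4 probe sets, and which transcripts each of them reads is not given in the sources used here. Limb bud mesenchyme markers held 1 higher and 2 lower calls among 6, with mean log2 levels of 7.90 and 7.89 in the control portions and 7.98 and 7.86 in the null portions, and 1 of the 6 lay below the median of every array. Their part in the Wnt5a values was not tested.

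Wnt5b, the close relative of Wnt5a, had negative differences on both of its probe sets and was called on 1. Probe set 1439373_x_at read 6.48 and 6.56 in the control pool and 6.01 and 5.77 in the null pool (1.55-fold, adjusted p = 0.0104). It lost its call in 3 of 4 fits with an array left out, at -0.67 (adjusted p = 0.0563) when control replicate 1 was dropped, at -0.59 (adjusted p = 0.0724) for control replicate 2 and at -0.51 (adjusted p = 0.043) for null replicate 2. The brighter probe set, 1422602_a_at, read 6.67 and 6.79 against 5.39 and 6.39, so the null portions themselves were a full log2 unit apart, and its difference of -0.84 was not called (adjusted p = 0.124), though it was with an intensity trend in the fit (adjusted p = 0.0378).

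Wnt2, a ligand of allantois, heart mesoderm and later lung mesoderm, stood at 7.87 and 7.80 in the control pool and at 7.20 and 7.12 in the null pool. The fall was 1.60-fold (limma, adjusted p = 0.0029). Heart markers held 2 higher and 0 lower calls among 7, with a mean log2 level of 9.83 and 9.86 in the control portions and 10.28 in both null portions, and 0 of them lay below the median of every array. Endothelial markers held 4 higher and 0 lower calls among 7. Their part in the Wnt2 value was not tested.

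Wnt3a, the ligand that sustains the tail bud, read 6.75 and 6.80 in the control pool and 6.95 and 6.81 in the null pool. Its difference of 0.10 was not called (95% interval -0.10 to 0.30) and turned to -0.15 with poly-A spike centring. The tail bud list held 1 higher and 0 lower calls among 7 measured genes, and 4 of these 7 lay below the median of every array. Its mean log2 levels were 5.54 and 5.52 in the control portions and 5.78 and 5.79 in the null portions, and its part in the Wnt3a value was not tested. Of the remaining ligands, several passed the adjusted p but not the fold limit. Wnt11 (0.46) and Wnt9a (0.42), which act in heart and muscle precursors and in joints, and Wnt10b (0.32) were on the positive side. Wnt7b (-0.38), Wnt8b (-0.50 in 1 of 3 probe sets) and Wnt7a (-0.25 in 1 of 3) were on the negative side. The 2 probe sets of Wnt4, a ligand of kidney and gonad formation, differed in sign, at -0.56 and 0.14. Wnt2b, Wnt3, Wnt6, Wnt8a, Wnt9b, Wnt10a and Wnt16 gave no probe set with an adjusted p under 0.05. Of the 32 ligand probe sets 12 lay below the median of every array.

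**Figure D2:**
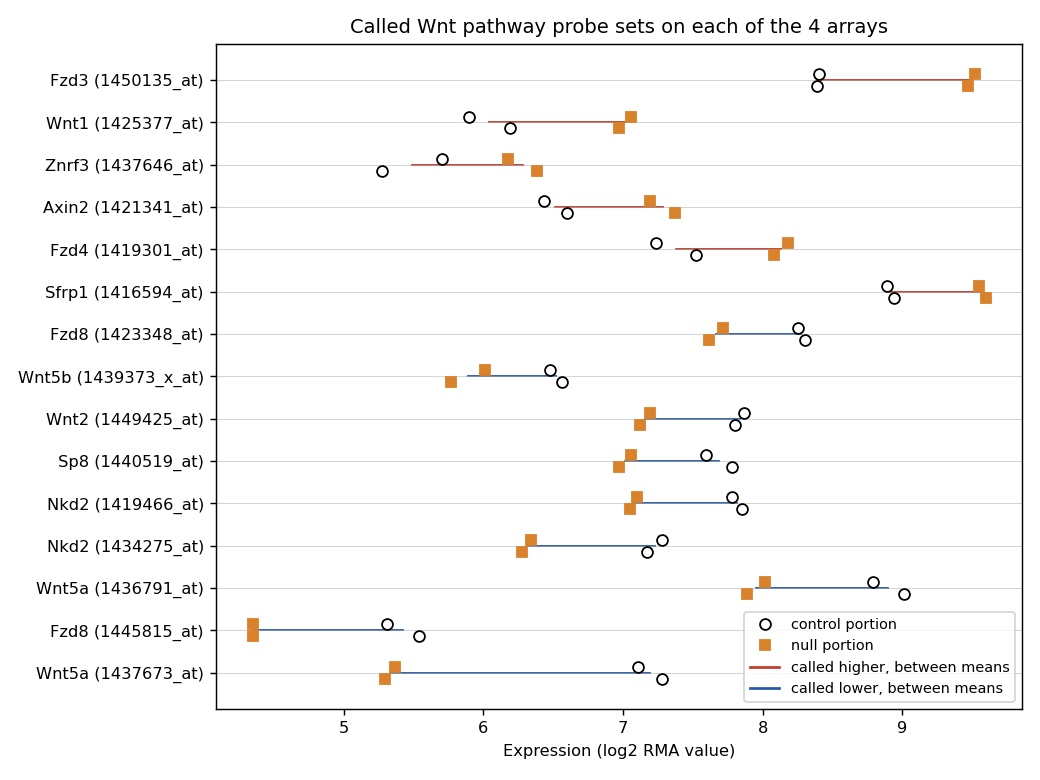
Log2 expression (horizontal axis) of the 15 called member probe sets on each array, open circles for the 2 control portions and filled squares for the 2 null portions. The rows were chosen by their calls on these same arrays, so a separation of the portions of the 2 pools in each row is near to given. The widest gap is that of Wnt5a probe set 1437673_at.

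Among the receptors, Fzd8 was lower. Frizzled-8 is a receptor of the forebrain and anterior neural plate. Its bright probe set 1423348_at read 8.25 and 8.30 in the control pool and 7.72 and 7.61 in the null pool, and its dim probe set 1445815_at read 5.31 and 5.54 against 4.35 on both null arrays. Both probe sets were called lower, at 1.53-fold (limma, adjusted p = 0.00427) and 2.10-fold (adjusted p = 0.00214). Fzd8 was the only gene of 9 with several probe sets and a call in which all probe sets were called. The brighter one lies close to the fold limit and missed it at -0.58 (adjusted p = 0.0389) with control replicate 2 dropped and at -0.56 (adjusted p = 0.0348) with null replicate 2 dropped, as it did with quantile normalization applied once more (-0.55). The dim one lay below the median of every array and gave the very same value on both null arrays, so the size of its fold is uncertain. The neural tube markers held 2 lower calls and 0 higher among 7, with a mean log2 level of 9.66 and 9.71 in the control portions and 9.40 and 9.33 in the null portions, and 0 of them lay below the median of every array. Their part in the fall of Fzd8 was not tested.

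Fzd3 and Fzd4 each had a single probe set called higher. Fzd3 is a receptor of planar polarity and axon guidance, and Fzd4 a receptor of blood vessels. For Fzd3, 1450135_at read 8.41 and 8.39 in the control pool and 9.52 and 9.47 in the null pool, a 2.14-fold rise (limma, adjusted p = 0.000928). The brightest of its 6 probe sets, 1434788_at, went the opposite way under the fold limit (-0.40, limma, adjusted p = 0.0088). The other 4 differed by -0.17 to 0.01. For Fzd4, 1419301_at read 7.24 and 7.53 against 8.18 and 8.08 (1.68-fold, adjusted p = 0.00916), while the brightest probe set differed by 0.05. The Fzd4 call was lost by adjusted p with either null portion left out, at 0.70 (adjusted p = 0.065) for replicate 1 and 0.80 (adjusted p = 0.0554) for replicate 2, and with poly-A spike centring (0.49, adjusted p = 0.054). A difference on a single probe set of a gene is a statement about that probe set only. The endothelial list, whose 7 genes held 4 higher calls, had mean log2 levels of 7.95 and 7.93 in the control portions and 8.69 and 8.70 in the null portions, with 0 genes below the median of every array, and its part in the Fzd4 value was not tested.

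The co-receptor genes were not called. Lrp6 read 8.93 for both portions in the control pool and 9.16 and 9.04 in the null pool on its brighter probe set, a difference of 0.17 (95% interval -0.02 to 0.35) that turned to -0.09 with poly-A spike centring. Its second probe set differed by 0.53 with an adjusted p of 0.0116, under the fold limit. Lrp5 differed by 0.03. Of the other Frizzled genes Fzd7, the receptor of mesoderm and heart precursors, stood at 0.39 and 0.22, Fzd1 at 0.25 and 0.13, and Fzd6, a planar polarity receptor of skin, at -0.50 on its 2 brighter probe sets, all without a call. Fzd2, Fzd5, Fzd9 and Fzd10 gave differences between -0.26 and 0.38 with adjusted p-values above 0.05.

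None of the 9 genes of secreted inhibitors was called by its brightest probe set. Sfrp1, which binds Wnt proteins outside the cell, is a case of disagreement. Its probe set 1416594_at read 8.89 and 8.94 in the control pool and 9.55 and 9.60 in the null pool, a 1.58-fold rise (limma, adjusted p = 0.00272) that was lost with poly-A spike centring (0.40, adjusted p = 0.134), whereas the other 4 differed by -0.34 to -0.06 and 2 of these had adjusted p-values under 0.05 in the opposite direction. Dkk1, which blocks LRP6 and is needed for the head, read 7.53 and 7.59 against 7.55 and 7.57. That difference was 0.00 with a 95% interval of -0.16 to 0.17, and the dim second probe set, 1458232_at, was at -0.39. Both probe sets of Dkk3, a divergent relative, were positive (0.48 and 0.33), as was Notum (0.50), an enzyme that removes the lipid from Wnt proteins, all under the fold limit. Sfrp2 stood at -0.26, and Dkk2, Dkk4, Sfrp4 and Sfrp5 between -0.23 and -0.02.

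Among the intracellular members, Nkd2 and 1 probe set of Axin2 were called, and 7 of the 15 probe sets (46.7%) had an adjusted p under 0.05. These 15 belong to only 5 genes, and the share over all tested probe sets was 32.7%. Ctnnb1, the gene of β-catenin, was among the brightest on the array, at 13.53 and 13.51 in the control pool and 13.36 and 13.37 in the null pool. All 3 of its probe sets had small negative differences, at -0.16, -0.22 and -0.28, and the last of these alone had an adjusted p under 0.05 (0.0252). The 95% interval of the brightest, -0.32 to 0.00, lies wholly inside the 1.5-fold limits. Nkd2, which binds Dishevelled and dampens the signal, had negative differences on all 4 of its probe sets and was called lower on 2. Probe set 1419466_at read 7.78 and 7.85 in the control pool and 7.10 and 7.05 in the null pool (1.67-fold, adjusted p = 0.00219). Probe set 1434275_at read 7.28 and 7.17 against 6.34 and 6.28 (1.88-fold, adjusted p = 0.00168). The remaining 2 differed by -0.42 and -0.24, under the fold limit. Nkd1, its relative, stood between -0.24 and 0.19 with no call, and the brighter probe set of Axin1, the scaffold of the destruction complex, at -0.34.

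Axin2, the feedback scaffold used most widely as a readout of β-catenin signalling, read differently on its 2 probe sets. The dimmer one, 1421341_at, went from 6.44 and 6.60 in the control portions to 7.19 and 7.37 in the null portions, and was called higher (1.70-fold, limma, adjusted p = 0.00537), a call lost by the fold limit with poly-A spike centring (0.51). The brighter one, 1436845_at, read 8.93 and 8.77 against 8.76 and 8.75, with a difference of -0.10 and a 95% interval of -0.31 to 0.10. These intervals, -0.31 to 0.10 and 0.51 to 1.02, do not meet. The mean of both probe sets gave 0.33, under the fold limit. Of the ligases that clear Frizzled receptors from the cell surface, Rnf43 (0.29) was not called and Znrf3 was again divided. Its dim probe set 1437646_at read 5.70 and 5.28 against 6.18 and 6.38 (1.73-fold, adjusted p = 0.0214), and the brighter one differed by -0.07. The Znrf3 call was lost in 3 of 4 fits, at 0.58 (adjusted p = 0.0628) with control replicate 2 dropped, at 0.89 (adjusted p = 0.0738) with null replicate 1 dropped and at 0.69 (adjusted p = 0.122) with null replicate 2 dropped, and by the fold limit with poly-A spike centring (0.54).

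**Figure D3:**
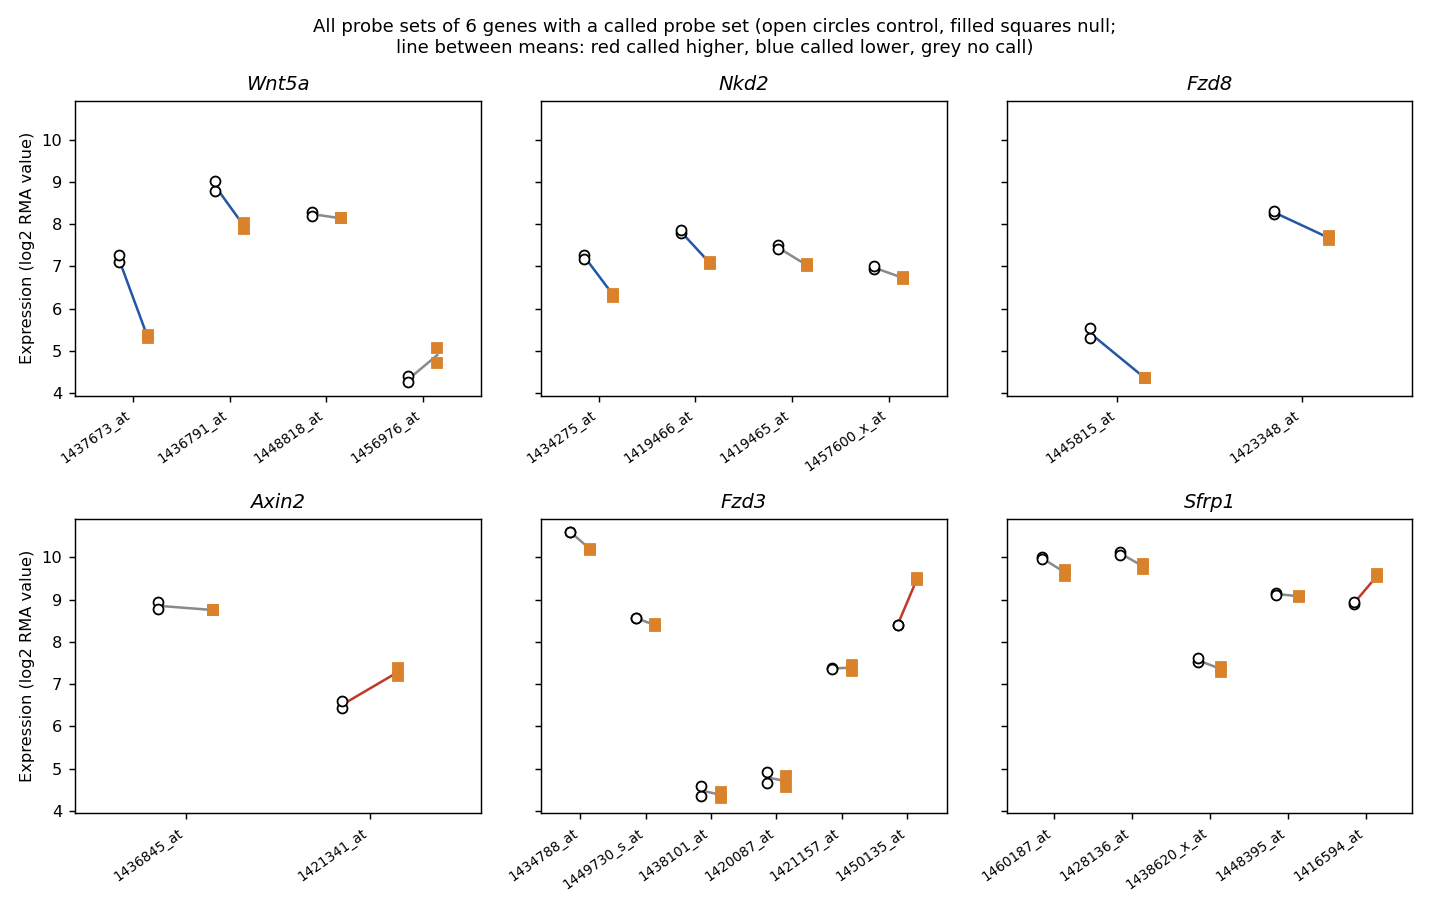
Log2 expression (vertical axis) on each array for all probe sets of 6 genes that held a call, with control portions as open circles and null portions as filled squares, joined at their means. The 2 probe sets of Fzd8 and the 4 of Nkd2 all slope down, whereas Axin2, Fzd3 and Sfrp1 each have 1 called probe set that slopes up beside others that are flat or slope down, and of the 4 of Wnt5a 2 slope steeply down, 1 is nearly flat and 1 slopes up.

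Such disagreement was not particular to the Wnt genes. Of the 9 member genes that had several probe sets and at least 1 call, 5 (55.6%) also held a probe set with a difference of the opposite sign, against 1214 of 2716 genes (44.7%) on the whole array. All probe sets were called the same way in 1 of the 9 (11.1%) and in 12.3% of the 2716. The range of differences within a gene had a median of 0.34 log2 units over 32 member genes and 0.31 over 9010 genes.

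Of the nuclear members, Sp8 was lower. SP8 is a zinc finger factor of the limb's apical ridge, the forebrain and the tail, and acts downstream of Wnt and FGF signals. It read 7.59 and 7.78 in the control pool and 7.06 and 6.97 in the null pool, on its only probe set (1.60-fold, limma, adjusted p = 0.00614), and the call was lost at -0.58 (adjusted p = 0.037) with control replicate 2 dropped and at -0.63 (adjusted p = 0.051) with null replicate 2 dropped. The markers of surface ectoderm and apical ridge held 3 higher calls and 1 lower among 12, with mean log2 levels of 7.77 and 7.79 in the control portions and 8.01 and 7.92 in the null portions, and their part in the Sp8 value was not tested. The related Sp5, a direct β-catenin target of the tail and midbrain, went the other way without reaching the fold limit, at 6.69 and 6.75 against 7.16 and 7.13 (0.42, adjusted p = 0.00862). Lef1, a factor that carries β-catenin to its targets and is itself a target, read 9.23 and 9.19 against 8.95 and 8.87 on its brighter probe set (-0.30, 95% interval -0.47 to -0.12) and differed by -0.20 on the other. Tcf7l1, a repressor of the same family, stood at -0.14 and -0.05, and the 4 probe sets of Tcf7l2 between -0.07 and 0.25, none with an adjusted p under 0.05.

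RefSeq promoters (GRCm38.p6) were at hand for 35 of the 52 member genes, with 46 start sites, and the 250 bases before each start were searched on both strands. The letters bound by TCF and LEF factors (AACAAAG or ATCAAAG or TACAAAG or TTCAAAG, which SOX factors can also bind) were present in 8 of the 46 (17.4%), against 14.8% of all 32851 promoters of that length. The AP-1 letters TGANTCA were in 1 (2.17%, against 6.75%) and the HIF core ACGTG, which overlaps the E-box, in 6 (13.0%, against 16.6%). A match is a description of the letters and not of a bound site, and the windows of Axin2, Wnt1, Wnt2, Fzd4 and Nkd2 held no TCF/LEF match. Wnt5a, Fzd3, Fzd8, Sfrp1 and Znrf3, which also held calls, had no promoter at hand and were not searched. The 4 windows shown are those of Sp8, which was called lower, and Wnt5b, called lower only on its dimmer probe set, each with a match, and of Sp5 and Dkk1, known targets that hold 2 matches each and were not called. Capitals mark the TCF/LEF letters on either strand. Sp8 (chr12:118846983-118847232, plus strand, the second of 3 starts), Wnt5b (chr6:119449387-119449636, minus strand, 1 of 3 starts), Sp5 (chr2:70474673-70474922, plus strand) and Dkk1 (chr19:30549497-30549746, minus strand) read as follows.
Sp8: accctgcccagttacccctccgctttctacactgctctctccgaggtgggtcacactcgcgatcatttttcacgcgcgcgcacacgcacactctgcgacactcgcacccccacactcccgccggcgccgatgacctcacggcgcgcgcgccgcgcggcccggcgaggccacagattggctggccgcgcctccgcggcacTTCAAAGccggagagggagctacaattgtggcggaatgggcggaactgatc
Wnt5b: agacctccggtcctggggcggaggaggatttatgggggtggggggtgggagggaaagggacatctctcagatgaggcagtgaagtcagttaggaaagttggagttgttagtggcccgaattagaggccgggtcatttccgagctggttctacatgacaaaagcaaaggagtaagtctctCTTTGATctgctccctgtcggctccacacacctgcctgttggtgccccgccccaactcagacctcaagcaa
Sp5: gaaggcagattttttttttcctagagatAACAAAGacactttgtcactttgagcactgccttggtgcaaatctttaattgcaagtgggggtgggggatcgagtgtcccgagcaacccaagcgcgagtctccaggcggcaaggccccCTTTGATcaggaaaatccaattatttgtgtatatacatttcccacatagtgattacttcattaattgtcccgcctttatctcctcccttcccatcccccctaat
Dkk1: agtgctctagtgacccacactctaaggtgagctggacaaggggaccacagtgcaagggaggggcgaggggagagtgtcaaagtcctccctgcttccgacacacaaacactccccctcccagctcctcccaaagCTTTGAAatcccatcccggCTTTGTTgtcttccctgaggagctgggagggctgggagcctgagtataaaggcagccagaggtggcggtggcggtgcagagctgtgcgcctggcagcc
The single Sp8 match begins 51 bases before the start and that of Wnt5b 71 bases before it, while the first of Sp5 and of Dkk1 begin 222 and 117 bases before theirs. The other 4 genes with a match were Wnt11, Fzd7, Lef1 and Tcf7l2. By the probe set of highest mean, the 8 genes stood at -0.84 (Wnt5b, not called), -0.68 (Sp8), -0.30 (Lef1), -0.07 (Tcf7l2), 0.00 (Dkk1), 0.39 (Fzd7), 0.42 (Sp5) and 0.46 (Wnt11), and Sp8 alone was called.

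The wider pathway was followed with 7 lists of 107 genes that are not members, of which 103 were measured. By the probe set of highest mean, 4 were called higher (3.88%, against 3.58% of all named genes) and 6 lower (5.83%, against 8.06%), with a median difference of -0.05. Among the other inhibitors, Sostdc1, which binds LRP6 and BMP proteins, rose from 6.84 to 7.76 (log2 means), while Draxin, a guidance protein that blocks LRP6, fell from 7.77 to 6.90 and Frzb, a soluble Frizzled relative, from 9.29 to 8.59. Of 23 genes of the destruction complex and intracellular relay 1 was called, Bcl9, the β-catenin co-activator, at -0.88. Of 20 measured genes of planar polarity and non-canonical signalling 1 was called, Prickle1, at 0.74 (0.48 and not called with poly-A spike centring), and the list's median was -0.19. Porcn, the enzyme that attaches the lipid to Wnt proteins, had the largest difference of the 9 genes of Wnt release and R-spondins (0.49), and 0 of these were called. Of the 10 called genes, Frzb and Ccnd1 had another probe set called the same way, Tcf15 and Bmp4 have a single probe set, and 0 had one called the opposite way. The other probe sets of Sostdc1, Draxin, Bcl9, Prickle1, Neurog1 and Snai2 were not called. With the mean of all probe sets of a gene, Draxin (-0.38), Bcl9 (-0.45), Prickle1 (0.41) and Snai2 (0.52) came under the fold limit. Sostdc1 (0.74) and Neurog1 (-1.07) kept their calls with that mean. A further 18 genes without a call held another probe set that was called, and in Gsk3b, the kinase that marks β-catenin, and Csnk1d such probe sets went in both directions.

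Genes known to respond to Wnt signals in the embryo held few calls, in both directions. Over all named genes 3.58% were called higher and 8.06% lower. Of 11 measured posterior and mesoderm targets 1 was lower, the somite factor Tcf15 (-0.64). Its call was lost with quantile normalization applied once more (-0.58), and Tcf15 is also 1 of the somite markers above. The tail genes Cdx1, Cdx2, Tbx6 and Msgn1 stood between -0.08 and 0.14, Cdx4 at 0.31 (adjusted p = 0.021) and Evx1 at -0.33 (adjusted p = 0.0285), under the fold limit, and 6 of the 11 lay below the median of every array. Of 12 targets of dorsal neural tube and crest, Neurog1 was lower (-1.58) and Snai2, a factor of migrating crest, higher (0.60, adjusted p = 0.00354), the latter at 0.57, under the fold limit, when control replicate 2 or null replicate 2 was left out, and at 0.34 with poly-A spike centring. Of 11 general targets, Bmp4 was higher (1.01) and Ccnd1 lower (-0.91), and Myc stood at 0.00.

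**Figure D4:**
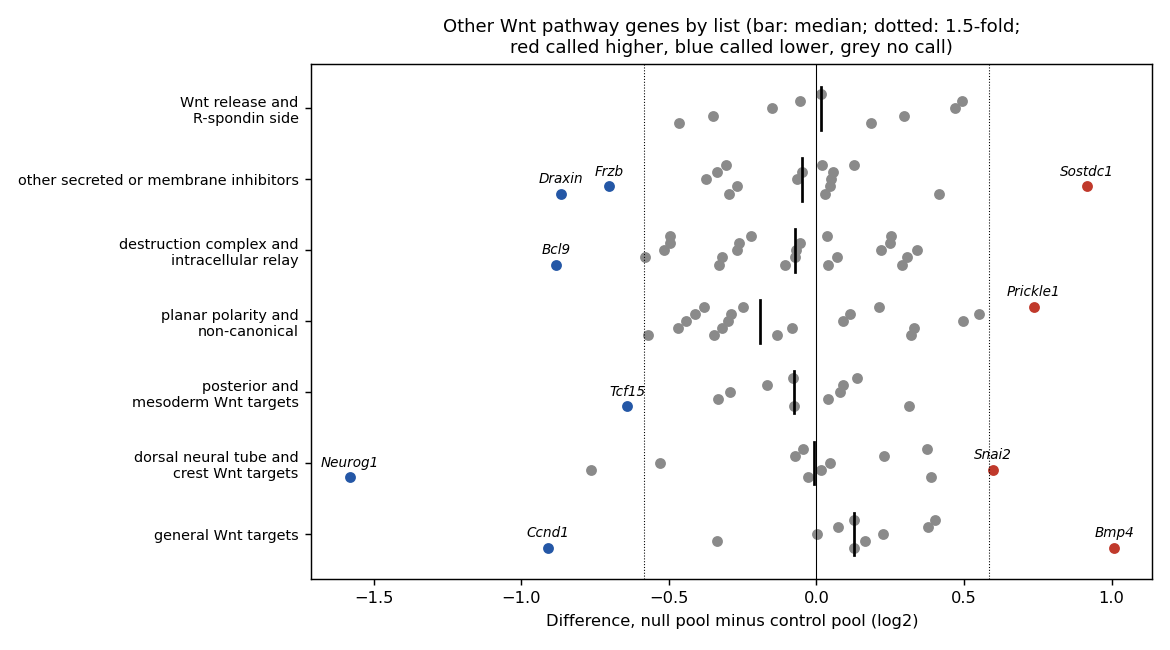
Difference between the null and the control pool (log2, horizontal axis) of the 103 measured genes of the wider Wnt pathway, 1 point per gene at its probe set of highest mean, by list, with the list medians as bars. The 4 genes called higher and the 6 called lower are named, and each list's median lies between -0.19 and 0.13.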

How the data were processed

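RNA of whole embryos was measured on 4 Affymetrix arrays, 2 per genotype. The authors deposited log2 values from RMA (package affy, per the submitters' processing notes), with no version or probe mapping in the sources used here. RMA brings the intensity distributions of the arrays close together, so a change of total RNA cannot be read from them. The deposited distributions were not identical and differed slightly by genotype. Their log2 medians were 6.03 for both control portions, 6.10 for null portion 1 and 6.09 for null portion 2. The upper quartiles went the other way, at 8.17 and 8.20 (control) against 8.12 and 8.13 (null). The values were used as deposited, without a filter on low values. Of 45101 probe sets, 64 Affymetrix controls were left out. The platform annotation gave 34945 of the others 1 gene, 932 several and 9160 none, and symbols were compared with RefSeq (GRCm38.p6) by gene number, which changed 0.

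The test was limma 3.58.1 under R 4.3.3 (lmFit, eBayes, genotype as the only term), with Benjamini-Hochberg adjustment over 45037 probe sets. A gene was represented by its probe set of highest mean, without regard to calls. The 2 arrays of a genotype carry 1 RNA pool, so their number bears on the spread between portions and not between embryos. Every member gene is accounted for. Values per array are given for each called member probe set and for 9 genes listed whether called or not (Ctnnb1, Lef1, Axin2, Sp5, Lrp6, Wnt1, Wnt3a, Wnt5a, Dkk1), and of each other pathway list the called genes are named, or the gene of largest difference. Marker lists are given by counts and mean levels. Others, such as Ascl2, Myc and the tail genes, were named after their values were seen. The members, lists and alternatives were chosen with earlier results of these data known.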

Additional observations from a re-analysis of the deposited data

How the results depend on the processing

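Leaving out 1 array in turn gave 5 to 6 member probe sets called higher and 7 to 9 lower, 1 member gene higher (1 to 1) and 3 to 6 lower, and 3 to 4 other pathway genes higher and 7 to 8 lower. The count of 3 came without control replicate 2, where Fzd8 and Sp8 lost their calls. Of the 15 called member probe sets, 14 kept the call with quantile normalization applied once more, where Fzd8 and the pathway gene Tcf15 lost theirs, 15 with an intensity trend, where Wnt5b made a sixth lower gene, and 14 of 14 with a value without the dimmest 40%. The difference of Cop1 lay between -1.63 and -1.53 with an array left out.

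Poly-A spike centring gave 2 member probe sets higher and 21 lower, 1 and 11 member genes, and 2 and 25 other pathway genes. Over all tested probe sets 4.11% were called higher and 15.9% lower there. The shares over all named genes were not counted, so the gene counts under this centring have no background to be read against. Of the 15 called, 11 kept their call. Sfrp1, Fzd4, Axin2 and Znrf3 lost their higher calls, as did Prickle1 (0.48) and Snai2 (0.34). Every difference falls by the same amount there, so no lower call could miss the fold limit and no called value could change sign. The spike medians of the control portions (7.23 and 7.49) lay as far apart as those of the pools. Among uncalled values, Lrp6 (-0.088), Wnt3a (-0.15) and Dkk1 (-0.25) changed sign there, as did Dkk1 without control replicate 1 (-0.027 in a range of -0.027 to 0.030 over the arrays left out), without null replicate 2 (-0.0095) and with the mean of all probe sets of a gene (-0.19), which also turned Axin2 (0.33). With that mean the lower genes were Fzd8, Sp8, Wnt2 and Wnt5b, while Wnt5a (-0.58) and Nkd2 (-0.58) came under the fold limit, as did Draxin, Bcl9, Prickle1 and Snai2.

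By adjusted p alone there were 17 member probe sets higher and 25 lower, 9 and 14 member genes, and 20 and 27 other pathway genes. In either direction this was 40% of the member probe sets, against 32.7% of all tested probe sets. By gene it was 44.2% of the members, against 33.9% of all named genes. Background shares by direction were not counted for adjusted p alone. At a fold of at least 2 there were 1 and 2 member probe sets, 0 and 0 member genes, and 1 and 1 other pathway genes. The shares over the whole array at this limit were not counted, so these counts have no background to be read against. The same-numbered portions of the 2 pools share only a number (correlation of their deviations 0.06), and the replicate block gave 5 and 9 member probe sets and 1 and 5 member genes, with Znrf3 losing its call (adjusted p = 0.0535).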
